A study of Mus musculus with 14 samples.

Results

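Broad domains of H3K4me1, sites of at least 5000 bp, were examined in the deposited set of H3K4me1 peaks of mouse fibroblasts. The members were chosen by width alone, as the rows whose end minus start reached 5000 bp on chromosomes 1 to 19 and X. This selected 1500 domains of 160108 sites on these chromosomes (0.937%), and the table held 160144 sites in all. The domains covered 10.8 Mb, which was 7.24% of the bases of all sites and 0.422% of the sequenced bases. They were set beside the 158608 narrower sites and, as the class nearest in width, beside the 4604 sites of 3 to 5 kb.

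The cells were NG3 cells, a single clone of immortalized mouse embryo fibroblasts that carry Ash2l fl/fl alleles and Cre-ER. In all groups, controls included, the cells' own Ash2l lacked exon 4, and a lentivirally expressed FKBP-HA2-ASH2L, human ASH2L behind an FKBP12 domain with the F36V exchange, took its place. H3K4me1 was measured by ChIP-seq in 6 conditions with 2 replicates each, a control without dTAG-13 and cells exposed to dTAG-13, which directs the fusion protein to degradation, for 30 min or for 2, 4, 8 or 16 h, which gives 12 libraries beside 2 inputs. The peaks were deposited as 1 set over all samples, with a chromosome, a start and an end. A domain therefore has no value per library, replicate or time point, the depth of the libraries was not given in the table, and all values below are positions and shares with no test.

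H3K4me1 is the mono-methylation of lysine 4 of histone H3, which the KMT2 enzymes place together with core subunits that include ASH2L. It is known from enhancers, often in introns or between genes, and from the flanks of active promoters, where the nucleosomes next to the transcription start site (TSS) carry H3K4me3 in its place. CpG islands are stretches rich in the dinucleotide CpG that mark many promoters in mammals.

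Stretches from the 5 widest domains are shown as examples. They were picked for CpG near the TSS and for a motif match inside, and so do not show the typical DNA of a domain. All 5 domains began within 1 kb downstream of the most upstream TSS of a gene and had most of their bases in first introns. The first lines give, for each domain, the 100 bases with the most CpG among the 1500 bases nearest the TSS that lie outside exons of coding genes, read in the direction of transcription with each CpG in capitals. The build is GRCm38.p6 (mm10). They lie at chr15:77841820-77841919 (minus strand, Myh9), chr14:25459773-25459872 (plus strand, Zmiz1), chr10:60830925-60831024 (minus strand, Unc5b), chr11:98929670-98929769 (plus strand, Rara) and chr2:173275751-173275850 (minus strand, Pmepa1).
Myh9: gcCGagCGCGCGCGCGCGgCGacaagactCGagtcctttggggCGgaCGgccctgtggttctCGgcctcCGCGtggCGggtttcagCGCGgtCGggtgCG
Zmiz1: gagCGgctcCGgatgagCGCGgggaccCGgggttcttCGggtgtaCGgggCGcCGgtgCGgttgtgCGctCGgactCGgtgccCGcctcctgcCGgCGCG
Unc5b: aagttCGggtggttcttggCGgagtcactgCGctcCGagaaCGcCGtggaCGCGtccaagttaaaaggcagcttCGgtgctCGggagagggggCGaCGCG
Rara: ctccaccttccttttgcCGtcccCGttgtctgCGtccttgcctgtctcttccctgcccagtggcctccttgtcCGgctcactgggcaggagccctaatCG
Pmepa1: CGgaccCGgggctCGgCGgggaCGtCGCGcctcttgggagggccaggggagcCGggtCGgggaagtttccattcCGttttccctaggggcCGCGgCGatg
These windows held 19 CpG in Myh9, 17 in Zmiz1, 13 in Unc5b, 5 in Rara and 13 in Pmepa1. The Rara window was the poorest in CpG, and Rara was also the gene of the 5 without a CpG island within 1 kb of its most upstream TSS.

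The next lines are taken from the inside of the same domains, 100 bases around the match to the AP-1 consensus TGANTCA nearest the centre, with the match in capitals. AP-1 is a dimer of FOS and JUN proteins that binds many enhancers of fibroblasts. The windows lie at chr15:77815412-77815511 (Myh9), chr14:25484263-25484362 (Zmiz1), chr10:60815224-60815323 (Unc5b), chr11:98942726-98942825 (Rara) and chr2:173263754-173263853 (Pmepa1), on the same strands as above.
Myh9: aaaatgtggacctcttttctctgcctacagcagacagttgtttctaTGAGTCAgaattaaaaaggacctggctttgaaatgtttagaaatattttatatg
Zmiz1: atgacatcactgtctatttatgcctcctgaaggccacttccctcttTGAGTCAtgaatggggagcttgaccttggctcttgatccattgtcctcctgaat
Unc5b: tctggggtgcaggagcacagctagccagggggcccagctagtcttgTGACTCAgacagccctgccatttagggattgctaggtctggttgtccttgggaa
Rara: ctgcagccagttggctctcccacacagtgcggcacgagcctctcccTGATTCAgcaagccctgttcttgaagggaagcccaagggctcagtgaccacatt
Pmepa1: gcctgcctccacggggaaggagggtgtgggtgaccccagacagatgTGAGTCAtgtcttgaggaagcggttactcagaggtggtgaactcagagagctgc
These windows held no CpG in Myh9, Zmiz1 and Unc5b, and 2 each in Rara and Pmepa1. The Myh9 domain held 23 matches to the consensus (0.459 per kb), the Zmiz1 domain 12 (0.283 per kb), the Unc5b domain 14 (0.347 per kb), the Rara domain 8 (0.293 per kb) and the Pmepa1 domain 13 (0.487 per kb). A match is a string of letters and not a bound site.

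The 6 widest domains began within 1 kb downstream of the most upstream TSS of a coding gene and had most of their bases in first introns. The widest of all, 50106 bp at chr15:77791909-77842014, covered 61.4% of Myh9, which encodes the heavy chain of non-muscle myosin IIA. It began 161 bp downstream of the most upstream TSS and ended 50266 bp downstream. The domain at Zmiz1, which encodes a transcriptional coregulator, was 42441 bp wide and began 184 bp downstream of the TSS (chr14:25459369-25501809). At Unc5b, encoding a netrin receptor, 40381 bp began 232 bp downstream (chr10:60790969-60831349). At Rara, encoding retinoic acid receptor alpha, the domain was 27288 bp wide and began 956 bp downstream. At Pmepa1, a gene known as induced by TGF-beta, it was 26685 bp wide and began 683 bp downstream. At Hspg2, encoding the basement membrane proteoglycan perlecan, it was 22313 bp wide and began 44 bp downstream. These 6 genes had in common a domain that started behind the most upstream TSS and did not cover it.

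The remaining 4 of the 10 widest domains lay deeper in genes or outside of coding genes. In Plec, encoding the cytoskeletal linker plectin, 21985 bp spanned 22481 to 44465 bp downstream of the most upstream TSS and held 10 further annotated TSSs. In Sept9, encoding a septin, 20625 bp began 104280 bp downstream. In Col5a1, encoding a chain of type V collagen, 19948 bp began 34714 bp downstream, in later introns. A domain of 19179 bp at chr6:31064364-31083542 overlapped the long non-coding RNA gene Lncpint and no coding gene. Of the 10 widest domains, 6 began within 1 kb downstream of a coding gene's most upstream TSS, none held that TSS, 5 held a TSS of another coding transcript, 7 overlapped a CpG island and 7 had most of their bases in first introns.

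**Figure D1:**
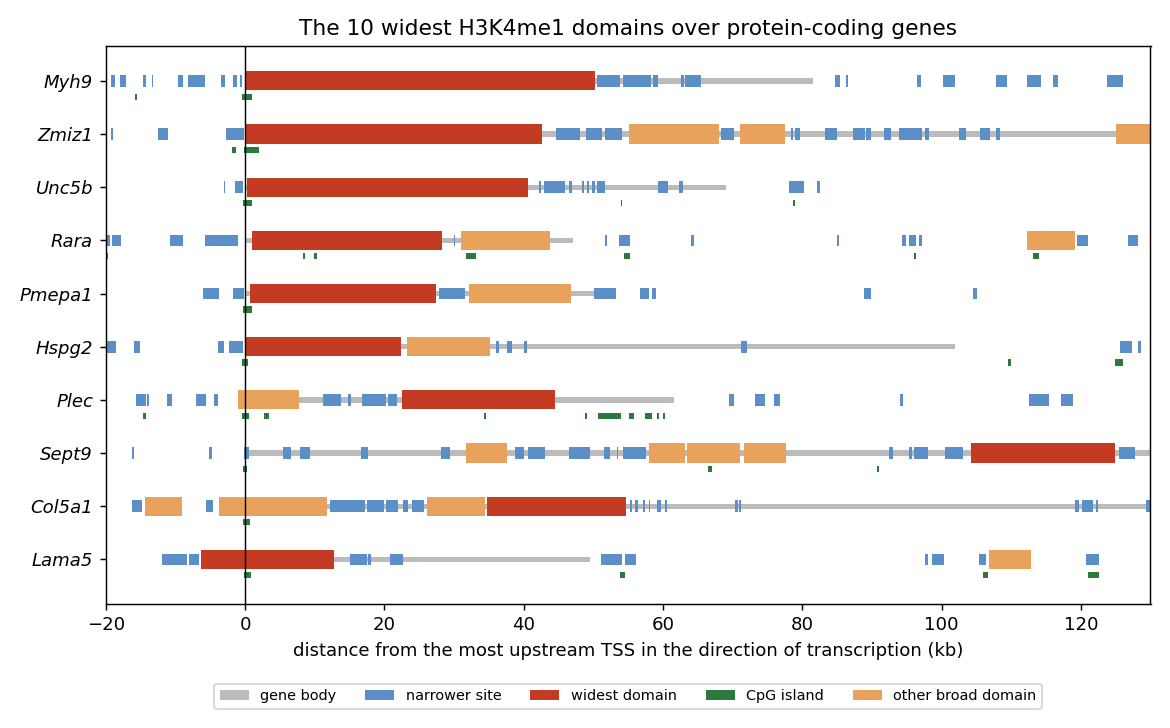
Each row is a gene, with the distance from its most upstream TSS in kb on the horizontal axis, for the 10 widest domains over coding genes. Red bars are the widest domain, orange bars other domains, blue bars narrower sites, grey lines the gene body and green bars CpG islands, and 6 of the red bars begin just right of the TSS.

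Domain widths had a median of 6310.5 bp with quartiles of 5478.75 and 7772 bp, while narrower sites had a median of 597 bp. Of the domains, 160 reached 10000 bp, 34 reached 15000 bp and 8 reached 20000 bp. Since width chose the members, these values only describe them. Just inside the limit lay domains at Mmp28 (5002 bp), Dkk3 (5002 bp) and Myo1e (5003 bp). Just outside it lay sites at Plb1 (4996 bp), Tmem119 (4998 bp) and Rac1 (4998 bp).

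Other H3K4me1 sites lay close to most of the domains. Within the 10 kb to either side, 34.1% of the bases belonged to other H3K4me1 sites, against 25.6% around sites of 3 to 5 kb and 15.2% around all narrower sites. Another site lay within 1 kb on both sides of 371 domains (24.7%) and on 1 side of 679 (45.3%). No site lay within 1 kb of 30.0% of the domains, whereas this was true of 51.3% of the narrower sites. Domains also lay near each other, with a median distance of 49.2 kb to the nearest domain. Another domain lay within 10 kb of 24.3% of them and within 100 kb of 60.4%.

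Autosomes carried between 0.350 domains per Mb on chromosome 13 and 1.15 on chromosome 11. Relative to coding genes, chromosome 15 had 14.0 domains per 100 genes, the highest value, and chromosome 8 was next with 9.13. On the X chromosome, the table listed 2560 sites but only 1 domain (0.0391%, 95% Wilson interval 0.00690 to 0.221%), compared to 1499 of 157548 sites on autosomes (0.951%, 0.905 to 1.00%). This domain measured 5078 bp and lay at Efnb1 (chrX:99136366-99141443), which encodes ephrin B1. Sites of 3 to 5 kb were likewise fewer on X, 17 or 0.664% of its sites against 2.91% on autosomes, and the median width of X sites was 462.5 bp against 606 bp. Wilson intervals here and below cover only the counting of sites, although sites that lie close together are not independent.

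**Figure D2:**
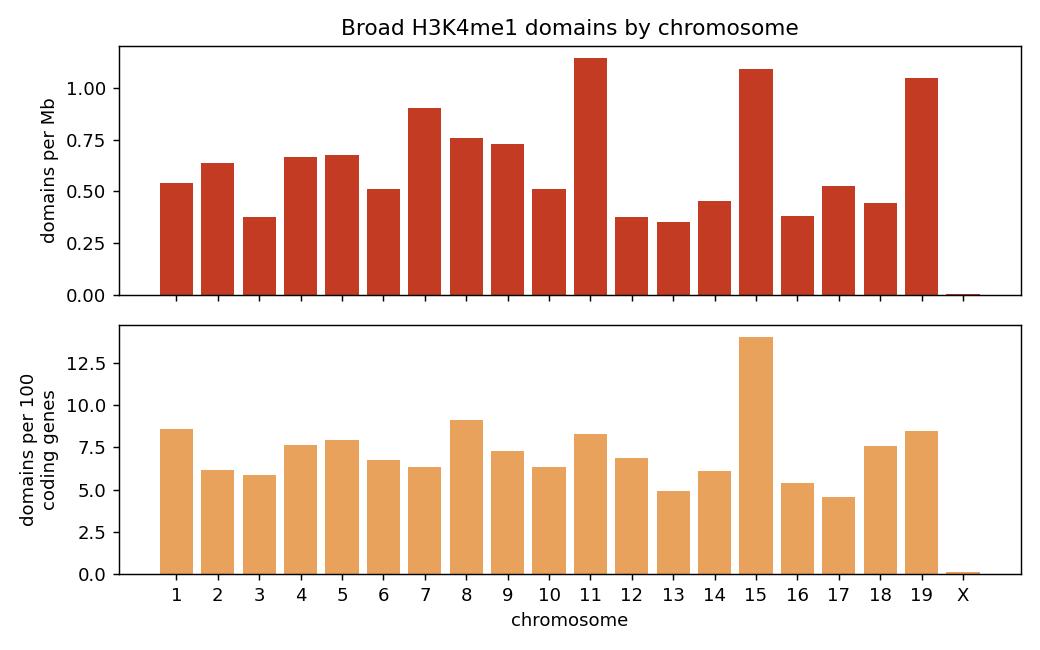
Bars give the number of domains per Mb of sequenced bases (top) and per 100 protein-coding genes (bottom) for each chromosome. Chromosome 11 has the tallest bar per Mb at 1.15, chromosome 15 the tallest per 100 genes at 14.0, and X has 1 domain.

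To ask which genes the domains cover, sites were compared with the protein-coding genes of GENCODE. A TSS of any coding transcript lay within 699 of the 1500 domains (46.6%, 44.1 to 49.1%), and the most upstream TSS of a coding gene within 28.9% of them. With any coding TSS, the share was 35.3% for sites of 3 to 5 kb and 8.30% for all narrower sites. A wider site holds a TSS more easily, so the density was also taken. With the most upstream TSS of each gene, domains held 4.56 TSSs per 100 kb, below the 7.38 of sites of 3 to 5 kb and the 5.90 of all narrower sites. Sites under 1000 bp held 2.97 per 100 kb, below the domains. The share counted any coding TSS and the density only the most upstream one. A site with a single TSS also has a lower density the wider it is. No conclusion on a preference for TSSs was therefore drawn from the density.

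The other domains lay mostly inside genes. A further 512 (34.1%) were located within a coding gene without a TSS, compared to 49.1% of narrower sites. Another 49 (3.27%) reached over the end of a gene, 88 (5.87%) touched only genes that are not protein-coding, and 152 (10.1%, 8.71 to 11.8%) lay between genes. Narrower sites lay between genes in 34.7% of cases.

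By bases, the domains were mainly intronic, and first introns stood out. These shares depend on width as well, because bases within 1 kb of a coding TSS were counted as promoter first. A wide site over a TSS must reach past this window into other classes, such as the first intron. How much of the share in first introns follows from this was not tested. First introns made up 41.6% of the bases of domains, 24.1% of those of narrower sites and 13.9% of the sequenced bases. Later introns went the other way, with 14.8% in domains, 19.5% in narrower sites and 20.7% of sequenced bases. The share in first introns was 22.8% for sites under 1000 bp, 23.3% for 1 to 3 kb, 31.0% for 3 to 5 kb, 38.6% for 5 to 10 kb and 53.4% for domains of 10000 bp and over. Promoters, the 1 kb to either side of a coding TSS, held 19% of the domain bases and 16.8% of narrower sites. The order turned with the class, as promoters held 22.5% of the bases of sites of 3 to 5 kb, 21.3% for 1 to 3 kb and 9.63% for sites under 1000 bp. Bases between genes made up 16.4% of domains, 30.3% of narrower sites and 52.0% of all sequence. Coding exons remained at 1.32% and untranslated exons at 2.49%.

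First introns held over 50% of the bases in 608 domains (40.5%, 38.1 to 43.0%). Genes with alternative starts have several first introns, so the count was repeated with 1 transcript per gene. With only the longest transcript per gene and without read-through transcripts, first introns held 36.2% of domain bases and 18.9% of those of narrower sites, while later introns held 28.9% and 29.1%. With this set domains and narrower sites differed in first introns and hardly in later ones.

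**Figure D3:**
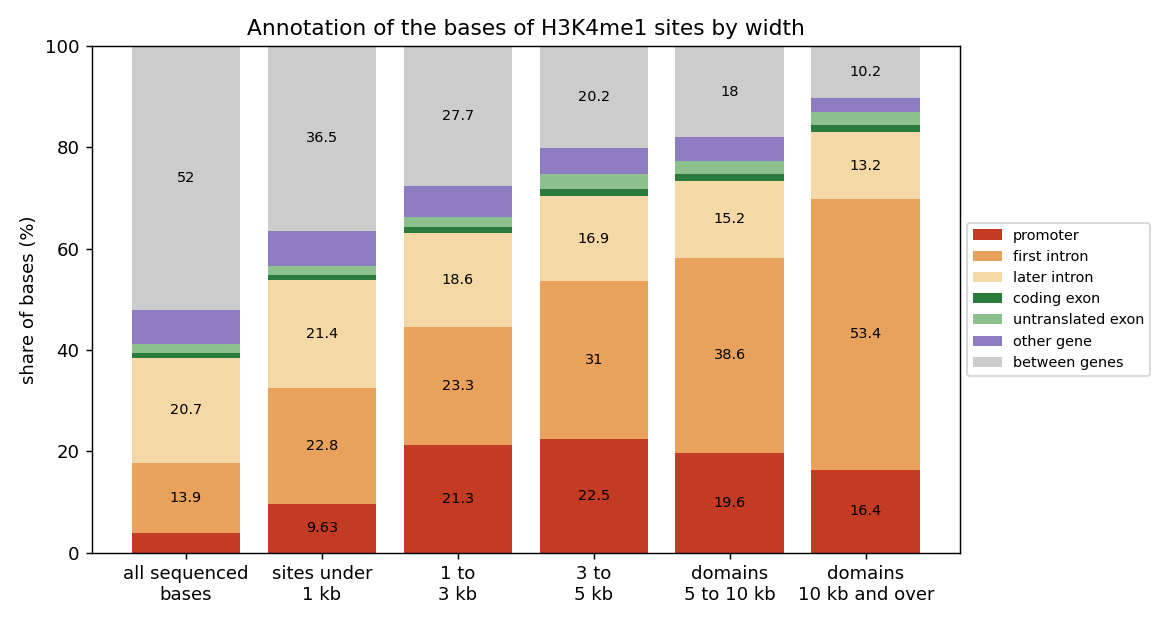
Stacked bars give the share of bases in % that fell in each annotation class, for all sequenced bases and for sites of increasing width, with promoters counted before exons and exons before introns. The orange part, first introns, grows from 22.8% in sites under 1 kb to 53.4% in domains of 10 kb and over, and the grey part, bases between genes, shrinks from 36.5 to 10.2%. Wide sites over a TSS must reach beyond the promoter class, so these shares are not free of width.

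Around the promoters they covered, domains reached further into the gene than away from it. The most upstream TSS of 493 coding genes lay in 433 domains. These extended a median of 2183 bp upstream (quartiles 1005 and 3631 bp) and 4562 bp downstream (3037 and 5955 bp). The downstream arm was the longer one for 364 genes (73.8%, 69.8 to 77.5%). Narrower sites over a TSS had shorter arms, 589 bp upstream and 1034 bp downstream, but the downstream arm was longer at a like share of 71.5%. The direction of the imbalance was therefore shared with narrower sites.

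A different arrangement was seen for sites next to a TSS that they did not cover. Of the domains, 106 (7.07%, 5.88 to 8.48%) began within 1 kb downstream of a coding gene's most upstream TSS, and 25 (1.67%, 1.13 to 2.45%) ended within 1 kb upstream of one. Among domains of 10000 bp and over, 16 of 160 (10.0%, 6.25 to 15.6%) began just downstream and 0 of 160 ended just upstream (0 to 2.34%). The interval of domains did not overlap that of all narrower sites, of which 3.52% (3.43 to 3.61%) began just downstream and 2.65% (2.58 to 2.74%) ended just upstream. For sites beginning just downstream, the difference lay toward the narrowest sites. Of sites of 1 to 3 kb 6.32% (6.09 to 6.56%) and of sites of 3 to 5 kb 5.65% (5.02 to 6.35%) began just downstream, with intervals that overlapped that of the domains, against 2.41% of sites under 1000 bp. Just upstream ended 1.39% (1.09 to 1.77%) of sites of 3 to 5 kb, like the domains, but 2.82% (2.66 to 2.98%) of sites of 1 to 3 kb. The ratio of the 2 counts was 4.24 in domains and 4.06 in sites of 3 to 5 kb. The genes with a domain beginning just downstream numbered 106, and 92 of them (86.8%, 79.0 to 92.0%) had a CpG island at the TSS.

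Domains of this kind started in CpG-rich sequence and left it quickly. They were picked for their place beside a TSS, mostly one with an island, so CpG-rich sequence at this edge follows in part from the choice. Narrower sites that begin at the same place were not measured. In the first 1000 bp from the edge nearest the TSS they had a mean of 63.1 CpG per kb, followed by 26.4 in the second and 14.2 in the fifth 1000 bp. In 475 other domains inside genes and without a TSS, the same bins held 13.2, 12.4 and 12.8 CpG per kb. All sequenced bases held 8.34 CpG per kb.

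**Figure D4:**
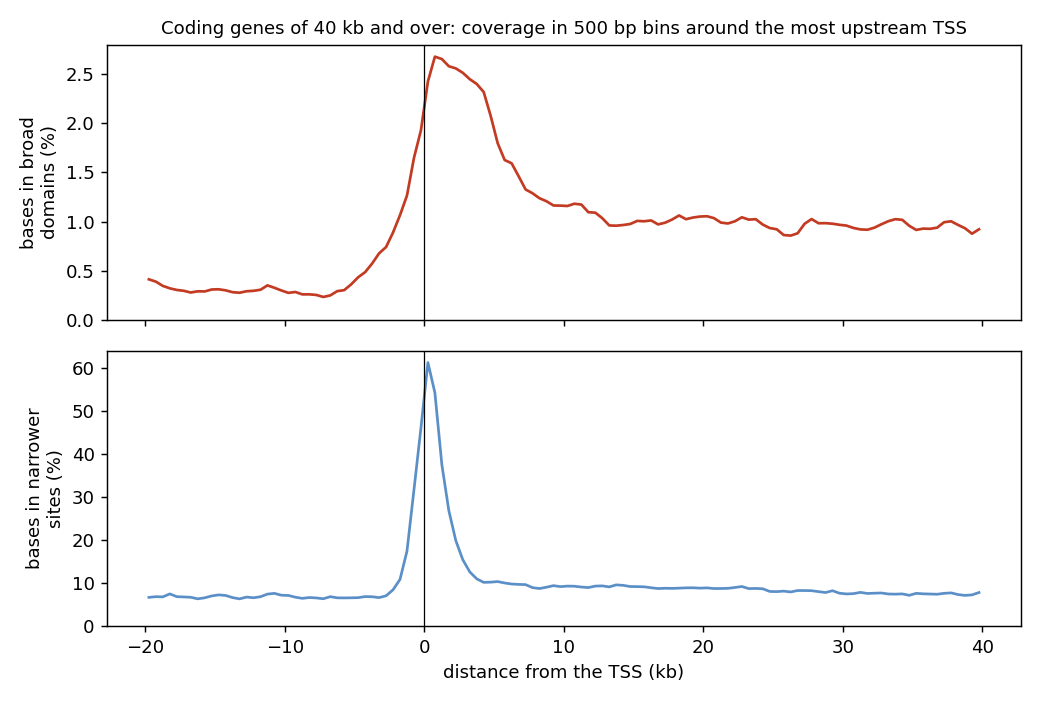
Lines give the share of bases in domains (top) and in narrower sites (bottom) in 500 bp bins from 20 kb upstream to 40 kb downstream of the most upstream TSS of the 6101 coding genes of 40 kb and over. From the bin at 500 bp downstream to the bin at 4000 bp, domain coverage goes from 2.68% to 2.32% and coverage by narrower sites from 54.2% to 10.2%. Domains were chosen as at least 5000 bp wide, so their flatter course over this distance follows in part from the selection.

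Along genes of at least 10 kb, domain coverage decreased from the 5′ to the 3′ end. Of the gene body cut into 10 equal parts, domains covered 1.57% of the bases in the part next to the TSS, averaged over 14062 genes, 1.17% in the second, 0.773% in the fifth and 0.402% in the last. Narrower sites covered 17.8% of the bases in the part next to the TSS but 8.67% in the second and 5.59% in the last. A domain spans more of these parts than a narrow site, so the declines are not directly comparable. Domains inside genes and without a TSS had their near edge a median of 15628 bp downstream of the closest upstream TSS of the gene, with 13.3% of them within 2 kb, and were centred at 39.2% of the gene length. Narrower sites inside genes were centred at 41.8%.

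CpG islands were present in 558 domains (37.2%, 34.8 to 39.7%), in 31.2% of sites of 3 to 5 kb and in 8.16% of all narrower sites. Again the density did not follow the share, and it too falls with width where a site holds a single island. Domains held 6.17 islands per 100 kb against 9.23 and 9.60, and island bases made up 4.59% of domains and 4.88% of narrower sites, both above the 0.416% of all sequenced bases. The order of these last values was not stable, as with a minimum width of 4000 bp wide sites held 5.19% and the rest 4.82%. GC content was 51.4% in domains and 49.4% in narrower sites, compared to 41.8% of all sequence. Repeats made up 15.6% of domains, 16.8% of narrower sites and 34.3% of all sequence.

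Short consensus sequences were counted on both strands, since fibroblast enhancers are known for AP-1 and TEAD. AP-1 (TGANTCA) occurred 0.403 times per kb in domains, 0.543 times in narrower sites and 0.317 times in all sequence. TEAD (GGAATG), the partner of YAP and TAZ, occurred 0.672, 0.728 and 0.593 times. RUNX (TGTGGT) occurred 0.866, 0.912 and 0.774 times. The GC box (GGGCGG), bound by SP factors, occurred 0.575, 0.493 and 0.117 times, and the E box (CACGTG) 0.178, 0.172 and 0.103 times. In 500 bp at the centre of the site, AP-1 was present in 18.5% of the 1500 domains and likewise in 18.5% of sites of 3 to 5 kb, in 11.9% of the 160 domains of 10000 bp and over, and in 27.3% of the 92570 narrower sites that were wide enough. Sites of 3 to 5 kb were close to domains in AP-1, with 0.414 matches per kb, and had more GC boxes, with 0.631 per kb, while sites under 1000 bp had 0.642 AP-1 matches and 0.324 GC boxes per kb. Sites of 1 to 3 kb had 0.495 AP-1 matches and 0.596 GC boxes per kb, with AP-1 in 26.0% of their central windows. In AP-1, domains were thus close to sites of 3 to 5 kb and below both narrower classes. In GC boxes they were above only sites under 1000 bp. Both motifs were above the level of the chromosomes.

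The gaps that separate domains from their neighbours were examined for promoters. Gaps of at most 2 kb next to a domain numbered 1798. Of these, 93 (5.17%, 4.24 to 6.30%) held a most upstream coding TSS and 141 (7.84%, 6.69 to 9.18%) a CpG island. For gaps between narrower sites the shares were 4.30% and 5.47%.

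Of 21755 coding genes, 1126 (5.18%) overlapped a domain, and 493 (2.27%) had the most upstream TSS inside one. These shares over all genes are the background for the gene groups that follow. Genes with a domain were long, with a median of 32.3 kb against 17.4 kb for all coding genes. Their first intron had a median of 8.57 kb against 2.65 kb. A CpG island at the TSS was found in 76.0% of them (73.4 to 78.4%) and in 54.2% of all coding genes (53.6 to 54.9%). Genes with narrower sites only had a median length of 24.3 kb, a first intron of 3.48 kb and an island in 69.6% (68.8 to 70.3%). At a given length, genes with an island more often had a domain. Under 10 kb the shares were 5.23% with and 1.05% without an island, and at 100 kb and over they were 11.1% and 7.63%.

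Most genes had a single domain (910), while 145 had 2, 42 had 3 and 29 had at least 4. Smad3, a transcription factor of the TGF-beta pathway, Cux1, encoding a homeodomain factor, Tead1, a partner of YAP, and Trio, encoding a guanine nucleotide exchange factor, had 6 domains each. By bases in domains, Zmiz1 led with 72859 bp in 5 domains, followed by Nfix with 55217 bp in 5 domains, Myh9 with 50106 bp, Smad3 with 49826 bp and Sept9 with 45212 bp. Capzb, encoding a subunit of the actin capping protein, had 44663 bp in 5 domains and Actn1, encoding alpha-actinin 1, had 41437 bp in 3. Pmepa1 had 79.4% and Rara 85.2% of the gene body in domains.

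Completely inside 1 domain lay 47 genes, with a median length of 3.30 kb. Such genes are short by definition, as none can be longer than its domain. The longest were Nab2 (7651 bp), a corepressor of EGR factors, Slc35e4 (7644 bp), Rin1 (6591 bp), Bloc1s1 (6154 bp) and Rhoc (6085 bp), which encodes a small GTPase. Immediate early genes among them were Junb, encoding an AP-1 subunit, with 4235 bp in a domain of 9467 bp, Zfp36, encoding an mRNA-destabilizing protein, with 3470 bp in 8542 bp, and Klf2 with 2624 bp in 5032 bp.

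Gene groups with a role in the structure and signaling of fibroblasts had domains at shares above the 5.18% of all coding genes, with wide intervals in these small groups. Gene length differs between groups, and the median length of a list is given beside its share, except for the short marker lists of other cell types. For lists of long genes the 5.18% is a low background. Of genes with an island, 7.38% of those of 30 to 100 kb and 11.1% of those of 100 kb and over had a domain. The intervals of nuclear receptors, collagens and laminins, given below, included the share of island genes in the class of their median length. The 5.18% also counts 5784 coding genes without any H3K4me1 site. It is therefore low for lists in which nearly all genes had a site, such as actin, contractile and focal adhesion genes with 100%. Actin, contractile and focal adhesion genes came first with 26 of 55 (47.3%, 34.7 to 60.2%, median length 35.3 kb), of which 9 had the TSS in a domain. After Myh9, the widest domains in this group were at Actn1 (17242 bp), at Bcar1 (14025 bp), which encodes an adaptor of focal adhesions, and at Actn4 (12278 bp). The list was chosen with results of these data known and is no independent evidence.

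**Figure D5:**
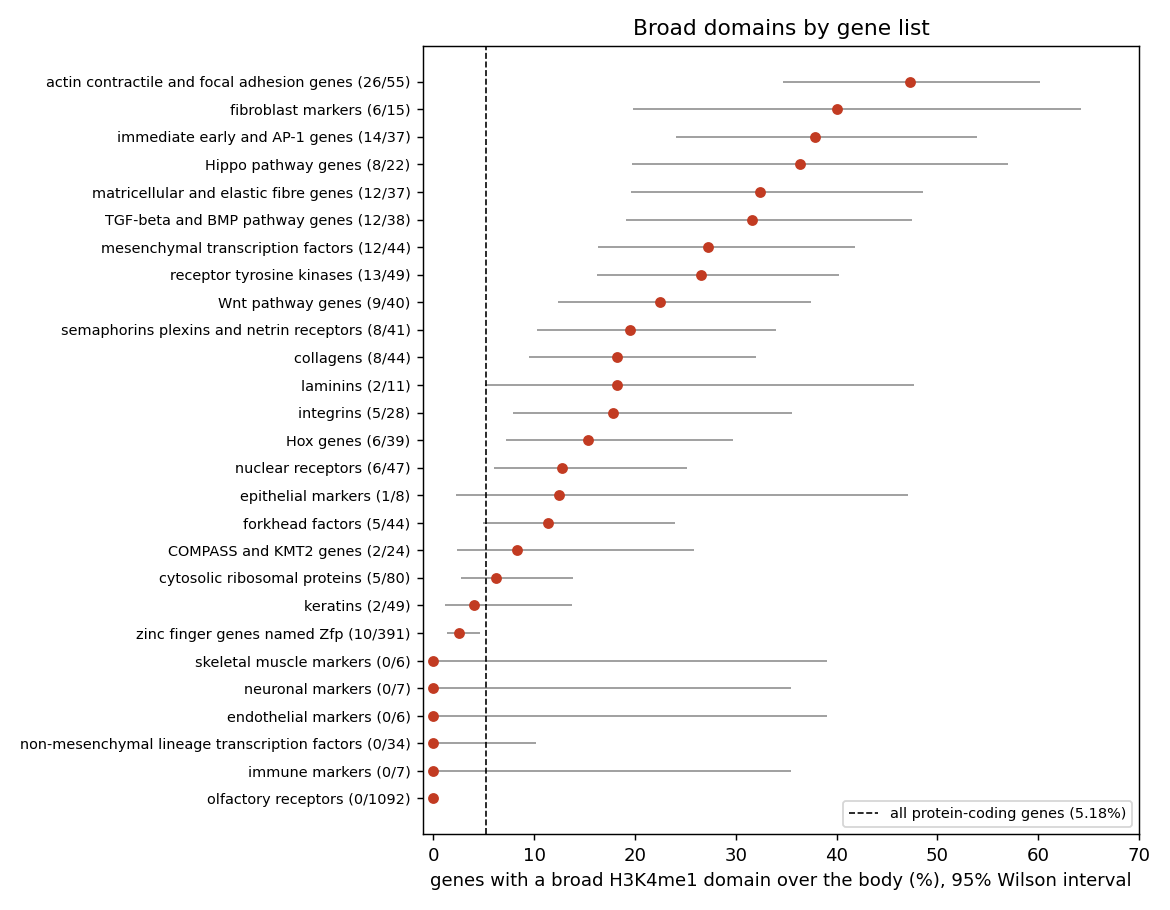
Points give the share of genes in each list described here with a domain over the body in %, bars the 95% Wilson interval, and the dashed line the 5.18% of all protein-coding genes. Points range from 47.3% for actin and focal adhesion genes to 0% for olfactory receptors and for the marker lists of muscle, neuronal, endothelial and immune cells. Only 3.57% of olfactory receptors had a site of any width.

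Fibroblast markers had domains at 6 of 15 (40%, 19.8 to 64.3%, median length 36.7 kb). These were Col5a1, Col1a1 with 13134 bp that covered 78.1% of the gene, S100a4, which lay completely inside a domain of 8946 bp, Pdgfrb with 8248 bp, Thy1 with 5488 bp and Sparc with 5163 bp. A site of any width was found at 14 of the 15. Markers of endothelial cells (0 of 6), immune cells (0 of 7), neurons (0 of 7) and skeletal muscle (0 of 6) had no domain, although a site of any width was present at 100% of endothelial, 71.4% of immune, 85.7% of neuronal and 33.3% of muscle markers. With lists this short, an upper bound of 35.4% for 0 of 7 and of 39.0% for 0 of 6 applies. Of 8 epithelial markers, Krt8 had a domain, of 5119 bp, which reached 124 bp into the gene. Transcription factors of non-mesenchymal lineages had domains at 0 of 34 (0 to 10.2%, median length 6.81 kb). This interval included the 5.18% of all coding genes, and 61.8% of the list had a site of any width.

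Genes that respond to growth factors came next. Immediate early and AP-1 genes had domains at 14 of 37 (37.8%, 24.1 to 53.9%, median length 6.71 kb), with the TSS covered in 10. Junb, Trib1 (9259 bp), Dusp1 (8915 bp) and Zfp36 had the widest. The domain counted for Dusp1, a phosphatase gene, began 25356 bp downstream of the most upstream TSS of an annotated span of 56539 bp, and another domain of 5812 bp over Dusp1 held 4 further annotated TSSs. Receptor tyrosine kinases had domains at 13 of 49 (26.5%, 16.2 to 40.3%, median length 73.4 kb), among them Axl (12415 bp), Igf1r (12086 bp), Epha2 (12011 bp) and Ddr1 (9958 bp). One of the 13, Fgfr2, is counted only through a single transcript annotated over 2960900 bp, without which it had 0 domains.

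Shares in 4 groups of signaling genes ran from 19.5 to 36.4%. Hippo pathway genes, whose effectors YAP and TAZ act with TEAD factors, had domains at 8 of 22 (36.4%, 19.7 to 57.0%, median length 47.2 kb). They included Amotl2 (14943 bp, with 89.2% of the gene in domains), Tead3 (13387 bp), Ajuba (11083 bp) and Tead1 (7607 bp). TGF-beta and BMP pathway genes had domains at 12 of 38 (31.6%, 19.1 to 47.5%, median length 48.9 kb), the widest at Pmepa1, Smad3 (12199 bp), Smad7 (11401 bp), which encodes an inhibitory SMAD, and Ski (9990 bp). Wnt pathway genes had domains at 9 of 40 (22.5%, 12.3 to 37.5%, median length 35.1 kb), with Tcf7l2 (11079 bp), Wnt5a (8063 bp), Tle3 (6685 bp) and Dvl1 (6533 bp). Semaphorins, plexins and netrin receptors had 8 of 41 (19.5%, 10.2 to 34%, median length 69 kb), with Unc5b, Sema3f (13832 bp), Plxnb2 (11540 bp) and Plxna1 (7053 bp). Ntn5, counted among the 8, overlapped a domain of 6864 bp by only 2 bp.

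Matrix genes were uneven. Matricellular and elastic fibre genes had domains at 12 of 37 (32.4%, 19.6 to 48.5%, median length 28.7 kb), with Fbln2 (16759 bp), Loxl1 (14755 bp), Loxl3 (13461 bp) and Ccn4 (10685 bp) ahead. Fbln2 encodes fibulin 2 and Loxl1 and Loxl3 encode enzymes that crosslink collagen and elastin. Collagens had 8 of 44 (18.2%, 9.51 to 32%) at a median length of 114 kb, where Col5a1 and Col1a1 were followed by Col6a3 (11556 bp) and by a domain of 11373 bp between the head-to-head genes Col4a1 and Col4a2 that counts for both. Laminins, with an interval that included the background, had 2 of 11 (18.2%, 5.14 to 47.7%, median length 114 kb), Lama5 (19095 bp) and Lamc1 (5435 bp). Integrins had 5 of 28 (17.9%, 7.88 to 35.6%, median length 59.7 kb), with Itga5, a subunit of the fibronectin receptor, at 15271 bp, Itgb5 at 10104 bp, Itga11 at 8648 bp and Itga7 at 5977 bp.

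Among regulators, mesenchymal transcription factors had domains at 12 of 44 (27.3%, 16.3 to 41.8%, median length 69.8 kb), with Nfix (18906 bp), Glis2 (14078 bp), Tcf7l2 and Ets1 (10167 bp). Nfix had 5 domains, and the widest began 298 bp downstream of its TSS. Nuclear receptors had 6 of 47 (12.8%, 5.98 to 25.2%, median length 46.5 kb), with Rara, Rarg (10366 bp), Thra (9204 bp) and Nr2f2 (7066 bp), so that genes for retinoic acid receptors held the first and second place. Hox genes had 6 of 39 (15.4%, 7.25 to 29.7%, median length 3.49 kb) in the HoxA and HoxD clusters, with Hoxa3 and Hoxa7 under a shared domain of 7430 bp, Hoxd11 (7302 bp) and Hoxa10 (6590 bp).

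Shares of forkhead, COMPASS, ribosomal protein and keratin genes had intervals that included the background. Forkhead factors had domains at 5 of 44 (11.4%, 4.95 to 24.0%, median length 5.72 kb), the widest at Foxs1 (11083 bp), Foxj2 (7552 bp), Foxn3 (6865 bp) and Foxk1 (5924 bp). COMPASS and KMT2 genes, which encode the H3K4 methyltransferases and their partners, had 2 of 24 (8.33%, 2.32 to 25.8%, median length 31.2 kb), Pagr1a (9133 bp) and Kmt2d (5517 bp). Cytosolic ribosomal protein genes had 5 of 80 (6.25%, 2.70 to 13.8%, median length 3.33 kb), with Rps14 (11940 bp), Rpl3 (8299 bp), Rpl38 (6063 bp) and Rps3 (5425 bp). The domain counted for Rps14 lay from -2884 to 9055 bp relative to the most upstream TSS of an annotated span of 31449 bp. Keratins had 2 of 49 (4.08%, 1.13 to 13.7%, median length 7.22 kb), Krt80 (10559 bp) and Krt8. Zinc finger genes named Zfp had 10 of 391 (2.56%, 1.40 to 4.64%, median length 17.5 kb), below the background, with Zfp516 (8788 bp), Zfp36, Zfp703 (8175 bp) and Zfp532 (7522 bp) the widest. Olfactory receptors had 0 of 1092 (0 to 0.351%, median length 5.99 kb). A site of any width was found at only 39 of these genes (3.57%), so most of them had no H3K4me1 site at all.

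Domains also covered genes of microRNAs, short RNAs that pair with target mRNAs through the seed, bases 2 to 8. Of 1005 hairpins listed by RefSeq for GRCm38.p6 on these chromosomes, 24 lay in domains, or 2.22 per Mb of domain against 1.42 per Mb of narrower site. The 3 widest domains with a hairpin held Mir5114 (12369 bp, in Scd2), Mir1941 (10559 bp, in Krt80) and Mir7687 (10170 bp, in Gse1). The next ones in width held Mir5135, Mir1191b, Mir3109, Mir6945, Mir8101, Mir6516 and Mir7671, in domains of 9706 to 7069 bp. Clusters of well-known microRNAs were under narrower domains and are shown here after their values were seen. A domain of 6893 bp at chr13:63299790-63306682 held Mir23b, Mir27b and Mir24-1, and a domain of 5661 bp at chr17:17825799-17831459 held Mirlet7e and Mir125a. The domain of 5972 bp at chr2:32314888-32320859 held Mir199b, which lies antisense within Dnm1. Mature sequences are given with the seed in capitals.
mmu-miR-27b-3p: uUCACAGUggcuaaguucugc
mmu-miR-24-3p: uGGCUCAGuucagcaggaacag
mmu-let-7e-5p: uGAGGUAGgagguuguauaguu
mmu-miR-125a-5p: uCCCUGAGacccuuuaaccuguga
mmu-miR-199b-3p: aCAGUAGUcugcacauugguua
These 5 seeds all differ, including those that lie in the same domain.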

How the data were processed

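H3K4me1 peaks of 12 ChIP-seq libraries and 2 inputs were used. The authors used Trim Galore to trim reads, BWA for alignment to mm10, samtools for filtering, Picard for merging of replicates and Macs for broad peaks. Versions and thresholds are not given in the sources used here. The deposited values are positions in bases, for 1 peak set over all samples. How far Macs joins neighbouring signal sets the width of a site, and so which sites count as broad. Starts are printed counted from 1. Annotation came from GENCODE M21 and sequence from GRCm38.p6, read in Python 3.11.15 with numpy 2.4.6, pandas and numba. Bases were assigned in the order promoter (1 kb to either side of any TSS of a coding gene), coding exon, untranslated exon, first intron, later intron, other gene and between genes. CpG islands were called on repeat-masked sequence (17 per CpG, -1 per other base, over 200 bp, GC of at least 50%, observed to expected CpG over 0.6). Overlaps were tested on simulated data and equalled a direct count for 4000 of 4000 sites, and 50 of 50 planted islands were found. Intervals are 95% Wilson intervals. No group was compared with another, as the peak set gives no value per library. The domains, gene lists and measures were chosen with earlier results of these data known. Named are the genes under the 10 widest domains, those with the most domain bases, the most domains, the longest and the immediate early genes inside 1 domain, up to 4 genes with the widest domain in each list, miRNA genes in the 10 widest domains with one, and the genes at the width limit. Some genes and lists that this rule selects are not reported here.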

Additional observations from a re-analysis of the deposited data

How the results depend on the processing

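No paired analysis was possible because the peaks carry no values of single libraries, and for the same reason no replicate could be left out. The number of domains depended on the width limit and on merging, with 2829 at a minimum of 4000 bp, 160 at 10000 bp and 5398 after sites within 1 kb were merged. The share holding a coding TSS was 42.9% at 4000 bp, 70% at 10000 bp, 28.9% with the most upstream TSS of each gene, 53.1% with TSSs of all annotated genes and 51.5% with TSSs inside or within 1 kb. The intronic share of bases was 53.3% at 4000 bp, 66.6% at 10000 bp and, with the longest transcript per gene, an alternative chosen after seeing the data, 65.1%. The median downstream arm around a TSS was 9530 bp at 10000 bp. The share of coding genes with a domain was 8.73% at 4000 bp, 0.735% at 10000 bp, 15.9% after merging, 2.27% for the TSS inside a domain and 0.919% for at least 50% of the gene body in domains. The remaining 19 of 36 alternatives stayed within the interval of the value given in the report or, for medians, within 1.5 times of it. For shares of bases, which have no interval above, one was computed as if each domain were 1 count. It does not measure the spread of a base share and served only as a yardstick. At each width limit and after merging, wide sites had a higher TSS share and intronic share than the rest, but the order of the island base shares turned at 4000 bp. Widths come from pooled samples, so a domain may be wide at some time points only, which was not tested. The authors report that the sites gaining H3K4me1 after dTAG-13 were nearly all at promoters. Whether this gain added to the width of domains at promoters was not tested either.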

Other observations

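Domains also held the start of non-coding genes. The most upstream TSS lay in a domain for 46 of 5305 lincRNA genes (0.867%), 75 of 2958 antisense genes (2.54%) and 22 of 788 processed transcripts (2.79%), against 2.27% of coding genes. An example of an antisense gene is Zmiz1os1, whose TSS lies in the widest Zmiz1 domain. A domain of 17097 bp on chromosome 19 (chr19:5802925-5820021) overlapped no annotated gene and began 252 bp from Malat1, a highly expressed nuclear RNA. Both this domain and the one at Lncpint are among the 20 widest. Of other gene types, processed pseudogenes overlapped a domain in 0.0406% of cases.

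By the count of domains and of bases, the locus Gm20388 would lead all coding genes, with 19 domains and 138672 bp. It is annotated through a read-through transcript over 4434882 bp and overlaps many other genes, so the assignment of these domains is uncertain. Without read-through transcripts and transcripts over 2.5 Mb, a choice made after seeing the data, 1101 of 21537 coding genes (5.11%) had a domain, and Smad3, Cux1, Tead1 and Trio were among the genes with the most.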
